A study of Mus musculus with 8 samples.

Results

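The mitochondrial carriers of the Slc25 family were examined in mouse myocardium that had been reperfused after a coronary occlusion, with and without prior DJ-1 protein. A gene counted as a member when the platform annotation gave its probe set a single symbol beginning with Slc25a. A gene with several such probe sets is represented by the brightest of them, judged by its mean over the 8 arrays. This gave 46 members, from 50 probe sets, among 19938 genes measured. Values are on the log2 scale, so a difference of 1 is a change of 2-fold in signal.

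Each carrier of this family sits, with few exceptions, in the inner mitochondrial membrane and moves particular small molecules between the cytosol and the matrix, many of them by exchange. The heart depends on them because nearly all of its ATP is made in the matrix and used outside it: phosphate and ADP must enter, ATP must leave, and fatty acids, reducing equivalents and cofactors must cross. During ischaemia and reperfusion the inner membrane is the site where ATP production stops and resumes, and some carriers have been studied as parts or regulators of the permeability pore. Protein activity was not measured here, only transcript signal.

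The DJ-1 group had 4 male mice that were given recombinant DJ-1 protein, and the placebo group had 4 male mice that were given phosphate-buffered saline (PBS). Both were of the strain written CH3 in the labels, 8 to 10 weeks old and 25 to 30 g in weight. The protein or saline was given 1 hour before a 45 minute closure of the left anterior descending coronary artery (LAD), and all 8 hearts were then reperfused for 2 hours. DJ-1, the product of Park7, is known for protecting cells against oxidative stress, and the comparison addressed how transcript levels differed when it had been given before ischaemia. Hearts without ischaemia were not analysed here, so every value below is a value in injured tissue, and the labels do not say whether the tissue came from the area that had been without flow. The tissue carried the markers of ventricular cardiomyocytes, all 10 of them above the 95th percentile (4.74) of the olfactory receptor genes, which heart hardly transcribes. Their summed signal was 89162 to 97367 in the DJ-1 arrays and 91227 to 98851 in the placebo arrays.

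Array medians lay between 5.25 and 5.35 and correlations between arrays between 0.978 and 0.987. DJ-1 replicates 3 and 4 stood apart on the first principal component of all genes (26.3% of the variance), at 19.6 and 23.5, against 5.31 or less for each of the other 6 arrays, so the main counts are also given without them. Placebo replicate 4 stood apart on the second component, at -27.9, against -7.18 to 12.5 for the others, and without it 254 genes in place of 470 had a lower mean at an unadjusted p under 0.05 in limma. The sample codes in the labels run without a break through each group, so an order of processing, if the codes follow one, and the treatment cannot be told apart. The labels number the samples of each group, and they were taken as separate mice. The p-values set each difference against the spread between these samples, which limma moderates with the spread of all genes.

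No carrier passed the test. When DJ-1 hearts were set against placebo hearts with limma, 0 of the 46 members had an adjusted p under 0.05, and the lowest adjusted p among them was 0.824. Over all genes tested the same threshold was passed by 0 (0%). At an unadjusted p under 0.05 there were 3 members, all with a lower mean after DJ-1: the citrate carrier Slc25a1, the ATP-Mg/phosphate carrier Slc25a24 and the glutamate carrier Slc25a22. That is 6.52% of the members, near the 5.99% of all genes that had such a p. On the lower side alone it was 6.52% of the members and 2.36% of all genes, and on the higher side 0 members and 3.63% of all genes. This split of all genes depended on the scaling, with 724 higher and 470 lower in the deposited values, 568 and 497 after quantile normalization, 544 and 525 after cyclic loess, and 435 and 796 with each array centred on its median. The same 3 members made up the count under each of these scalings.

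The median difference of the family (DJ-1 minus placebo) was 0.0062, against 0.0082 for all genes, and 24 members had a higher and 22 a lower mean after DJ-1 (52.2% higher, against 52.5% of all genes). The median was -0.036 with arrays centred on their median, a scaling that shifts every gene alike and gave -0.034 for all genes, and 0.021 without placebo replicate 1, against 0.011 for all genes. For the 39 members above the background guide described later it was -0.012, against -0.014 for all genes above it. The members' differences spanned -0.30 for Slc25a1 to 0.35 for the iron carrier Slc25a37. The 95% confidence interval lay within ±1 on the log2 scale for all 46 members, and within ±0.5 for 39 of them (84.8%, against 82.9% of all genes). Of these 39 carriers 33 were also above the background guide, and for them a difference beyond 0.5 on this scale lay outside the interval. A p that missed the threshold does not show that the groups were alike, and the interval states what size of difference remains possible.

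**Figure D1:**
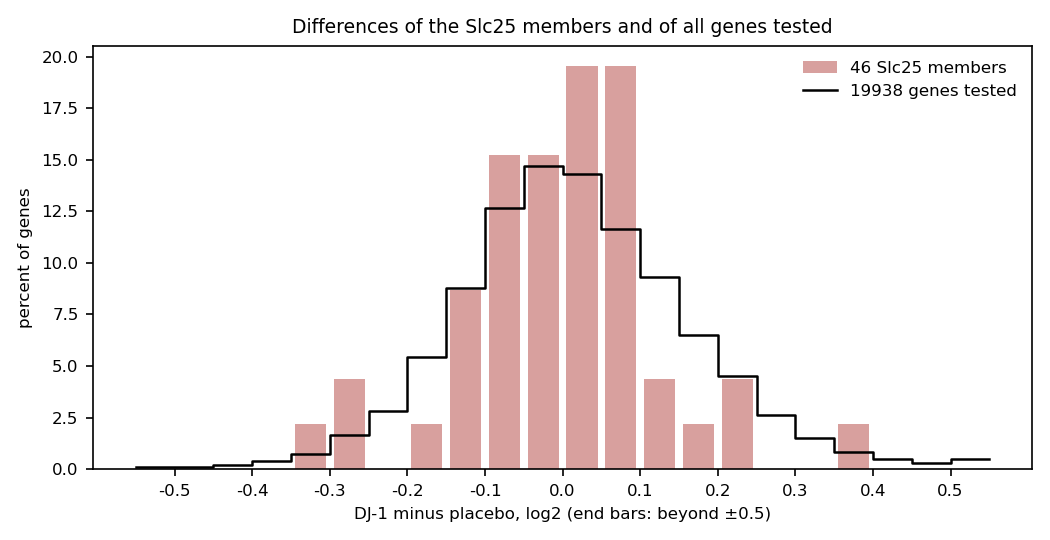
Share of genes (vertical axis, percent) by their DJ-1 minus placebo difference (horizontal axis, log2, in bins of 0.05), for the 46 Slc25 members (bars) and the 19938 genes tested (line). The medians were 0.0062 for the members and 0.0082 for all genes, and the members ended at -0.30 and 0.35.

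Most of the carriers were measured above the background guide. Of the 46 members, 39 had a mean above the 95th percentile of the olfactory receptor genes. The other 7 were Slc25a2, Slc25a14, Slc25a21, Slc25a31, Slc25a48, Slc25a53 and Slc25a54. Their differences ran from -0.10 for Slc25a21 to 0.16 for Slc25a53 and cannot be read as expression changes of the heart. Slc25a31, the ADP/ATP carrier of male germ cells, is among them. Levels of different probe sets were not set against each other.

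**Figure D2:**
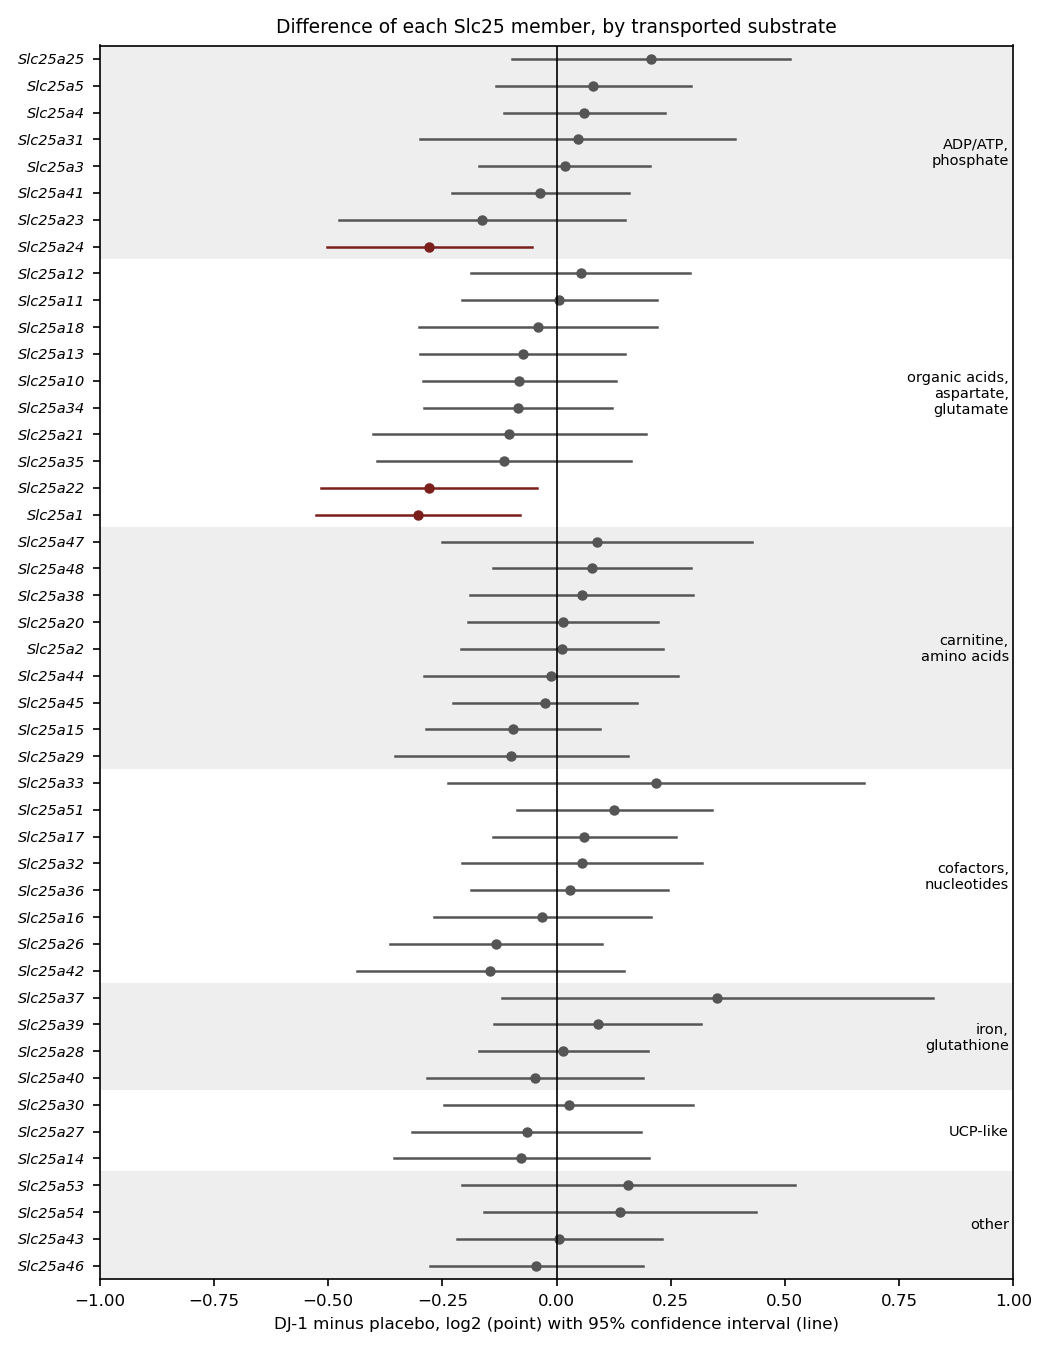
DJ-1 minus placebo difference (horizontal axis, log2) of each of the 46 members, grouped by substrate and ordered by difference within each group. Points are the limma estimates, lines their 95% confidence intervals, and dark red marks the 3 members with an unadjusted p under 0.05, whose intervals lie below 0; adjusted p was 0.824 or more for every member.

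The 3 members of smallest p belong to different transport steps. Slc25a1 exports citrate, the carbon source for fatty acid and sterol synthesis in the cytosol. It was at 7.17, 7.13, 6.94 and 7.35 in DJ-1 replicates 1 to 4, against 7.50, 7.38, 7.42 and 7.50 in placebo replicates 1 to 4. Every DJ-1 heart was below every placebo heart, by a narrow margin at DJ-1 replicate 4. The groups overlapped under quantile normalization and under cyclic loess. The means were 7.15 ± 0.17 in DJ-1 hearts and 7.45 ± 0.062 in placebo hearts (SD, n = 4 each). The difference was -0.30 (SE 0.10, 95% confidence interval -0.53 to -0.08, unadjusted p = 0.0124, adjusted p = 0.824), a fold of 0.810. With each array left out in turn it ran from -0.37 to -0.23.

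Slc25a24, a calcium-regulated carrier that exchanges ATP-Mg for phosphate and so sets the size of the matrix nucleotide pool, was at 6.06, 6.07, 6.12 and 5.78 in DJ-1 hearts, against 6.25, 6.39, 6.33 and 6.17 in placebo hearts. The groups did not overlap, and DJ-1 replicate 4 was the lowest of all 8. The means were 6.01 ± 0.15 in DJ-1 hearts and 6.29 ± 0.093 in placebo hearts (SD, n = 4 each). The difference was -0.28 (SE 0.10, unadjusted p = 0.0193, adjusted p = 0.824). Without DJ-1 replicate 4 it was -0.20, the smallest size among the settings tried (unadjusted p = 0.0568 in limma). These were the only 2 members whose groups did not overlap, 4.35% of the members against 3.22% of all genes (1.68% with DJ-1 lower, 1.54% with DJ-1 higher). Without placebo replicate 1 the count was 6 (6.25% of all genes), without placebo replicate 4 it was 4 (5.23% of all genes), and without both DJ-1 replicates 3 and 4 it was 6 (13.1% of all genes).

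Slc25a22 carries glutamate with a proton. It was at 6.20, 6.20, 6.24 and 6.55 in DJ-1 hearts, against 6.65, 6.67, 6.56 and 6.43 in placebo hearts. The groups overlapped, because DJ-1 replicate 4 stood among the placebo values while the other 3 DJ-1 hearts lay below all of them. The difference was -0.28 (SE 0.11, unadjusted p = 0.0242, adjusted p = 0.824). Without both DJ-1 replicates 3 and 4 the differences were -0.38 for Slc25a22 (unadjusted p = 0.00841), -0.30 for Slc25a1 (0.0173) and -0.22 for Slc25a24 (0.0748) in the limma fit. Slc25a1 had an unadjusted p under 0.05 in all 18 other settings tried. Slc25a24 missed it in 3 of them, without DJ-1 replicate 4, without placebo replicate 2 (unadjusted p = 0.0542) and without both DJ-1 replicates 3 and 4. Slc25a22 missed it when DJ-1 replicate 1, 2 or 3 or placebo replicate 1 or 2 was left out (unadjusted p of 0.0558 to 0.0647).

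The promoters of these 3 genes are shown because their transcripts had the smallest p in the family, with that of the muscle ADP/ATP carrier gene Slc25a4, whose values were the steadiest, beside them. Each line gives the 250 bases before the annotated start, 5′ to 3′ on the gene's strand, from RefSeq sequences of build GRCm38.p6. The positions are chr16:17928220-17928469 (minus strand) for Slc25a1, chr3:109122899-109123148 (plus strand) for Slc25a24, chr7:141437875-141438124 (minus strand) for Slc25a22 and chr8:46211063-46211312 (minus strand) for Slc25a4. For Slc25a22 the table lists 3 start sites, and the first is printed. Capitals mark the motifs described after the sequences.
Slc25a1: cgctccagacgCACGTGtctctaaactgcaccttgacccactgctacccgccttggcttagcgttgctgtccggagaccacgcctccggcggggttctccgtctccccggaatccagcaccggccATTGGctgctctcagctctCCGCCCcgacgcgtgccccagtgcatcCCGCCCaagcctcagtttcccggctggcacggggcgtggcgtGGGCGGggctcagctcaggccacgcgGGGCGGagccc
Slc25a24: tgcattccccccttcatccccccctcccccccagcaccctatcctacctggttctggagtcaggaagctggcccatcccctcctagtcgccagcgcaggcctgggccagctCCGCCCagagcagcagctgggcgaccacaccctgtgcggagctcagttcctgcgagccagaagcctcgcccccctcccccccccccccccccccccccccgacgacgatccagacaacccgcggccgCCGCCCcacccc
Slc25a22: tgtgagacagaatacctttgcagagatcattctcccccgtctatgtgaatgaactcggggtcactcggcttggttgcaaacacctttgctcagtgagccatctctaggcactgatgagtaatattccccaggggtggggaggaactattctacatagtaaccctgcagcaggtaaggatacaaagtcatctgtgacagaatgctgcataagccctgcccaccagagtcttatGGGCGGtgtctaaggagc
Slc25a4: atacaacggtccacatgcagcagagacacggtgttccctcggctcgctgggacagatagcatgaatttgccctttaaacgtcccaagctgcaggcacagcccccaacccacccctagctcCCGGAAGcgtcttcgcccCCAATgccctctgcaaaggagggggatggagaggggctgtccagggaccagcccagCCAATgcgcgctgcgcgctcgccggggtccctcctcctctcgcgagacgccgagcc

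The motifs searched, on both strands, were the GC box GGGCGG, the CCAAT box CCAAT, the ETS site CCGGAAG bound by GABP, the E-box CACGTG, the ERR half-site AAGGTCA, the palindromic NRF1 core and the TATA box TATAAA. Slc25a1 had 4 GC boxes, beginning 106, 79, 37 and 11 bases before the start, a CCAAT box on the opposite strand at 125 and an E-box at 239. Slc25a24 had 2 GC boxes, at 139 and 12 bases, and Slc25a22 had 1, at 18 bases. Slc25a4 had an ETS site at 130 bases and CCAAT boxes at 112 and 56 bases. Its printed bases held no GC box, but its full window, described below, held 1. The GC box was thus the motif held by all 3 genes with the smallest p, but it was also present in most of the family. Within the full windows, which reach 50 bases past the start, a GC box stood in 30 of the 36 members with a window in the table (83.3%), against 35.9% of all 27025 promoters in the table. An ETS site stood in 7 (19.4%, against 9.12%), an E-box in 6 (16.7%, against 7.24%) and a CCAAT box in 17 (47.2%, against 37.9%). An ERR half-site was present in 1, Slc25a34 (2.78%, against 4.66%), a TATA box in 1, Slc25a18 (2.78%, against 14.2%), and the NRF1 core in 0 (against 0.977%). The members' windows were also richer in G and C, with a median of 60.2% against 52.7%, which bears on the count of any motif made of these bases. A match is a run of letters and not a measured binding site.

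**Figure D3:**
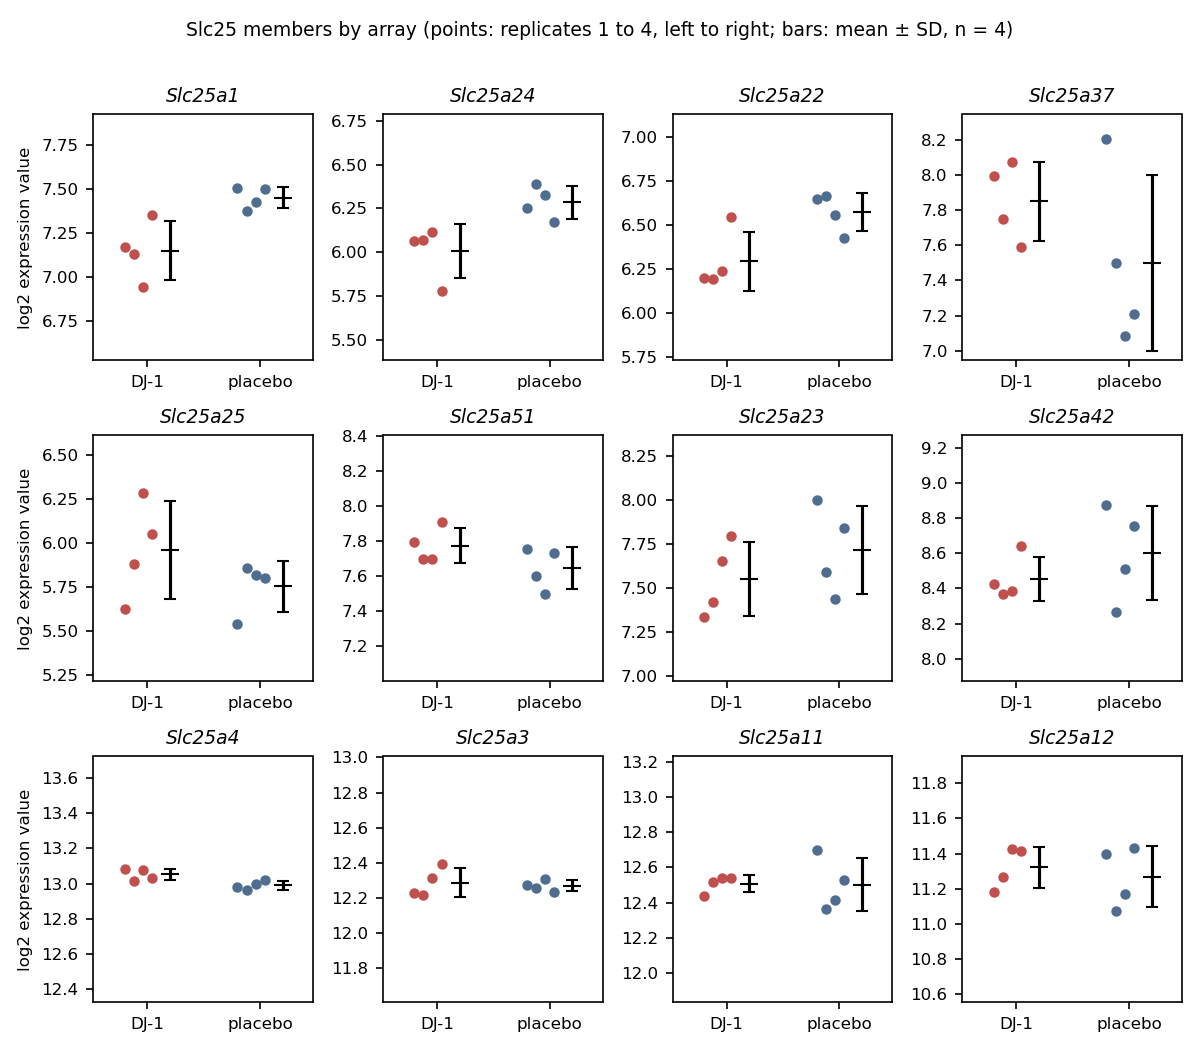
Log2 expression value (vertical axis, the same span of 1.4 in every panel) of 12 members in the 4 DJ-1 hearts (red, left) and the 4 placebo hearts (blue, right), with the mean and SD (bars) of each group. Slc25a1 and Slc25a24 show no overlap, Slc25a22 overlaps through DJ-1 replicate 4, Slc25a37 spreads widely in placebo hearts, and Slc25a4 and Slc25a3 vary little.

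Carriers of ADP, ATP and phosphate form the core of the family in heart. Of the 8 members in this group 5 had a higher and 3 a lower mean after DJ-1, with a median difference of 0.033, and 0 passed the adjusted threshold. Without Slc25a31, at the background level, it was 4 higher and 3 lower. Slc25a4 is the ADP/ATP carrier of heart and skeletal muscle. It was at 13.08, 13.01, 13.08 and 13.03 in DJ-1 hearts, against 12.98, 12.96, 13.00 and 13.02 in placebo hearts. The groups touched at 1 point, with placebo replicate 4 just above DJ-1 replicate 2. The difference was 0.061 (SE 0.081, 95% confidence interval -0.12 to 0.24, adjusted p = 0.909).

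The spread of Slc25a4 between hearts was small: its pooled SD of 0.030 stood at the 0.0702 percentile of all genes. Without moderation of the variances, that is with this gene's own spread alone, its unadjusted p was 0.0277, and with quantile normalization its groups did not overlap. Its values stand close to the top of the table, whose highest value was 14.36, where array signals can compress. Whether this bears on the small spread of Slc25a4 was not tested. Slc25a5, the ADP/ATP carrier of most other cells, was at 11.91, 11.92, 11.96 and 11.89 in DJ-1 hearts, against 12.06, 11.76, 11.79 and 11.74 in placebo hearts. All DJ-1 hearts lay between placebo replicate 1 and the other 3 placebo hearts. The difference was 0.081 (SE 0.097, adjusted p = 0.900), and 0.16 without placebo replicate 1. Its 3 probe sets list the same accessions and gave differences of 0.081, 0.074 and 0.065, so signal from closely related copies of this gene cannot be told apart from its own.

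Slc25a3 brings in the phosphate needed for ATP synthesis. It was at 12.23, 12.22, 12.31 and 12.39 in DJ-1 hearts, against 12.28, 12.26, 12.31 and 12.23 in placebo hearts. The groups overlapped, with a difference of 0.018 (SE 0.085, 95% confidence interval -0.17 to 0.21). Its sign was negative under quantile normalization and with arrays centred on their median.

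Other calcium-regulated ATP-Mg carriers were measured beside Slc25a24. Slc25a25 was at 5.63, 5.88, 6.29 and 6.05 in DJ-1 hearts, against 5.54, 5.86, 5.82 and 5.80 in placebo hearts. DJ-1 replicates 2, 3 and 4 were above every placebo heart, and DJ-1 replicate 1 was below 3 of them. The difference was 0.21 (SE 0.14, adjusted p = 0.836). It was 0.32 without DJ-1 replicate 1, where the unadjusted p was 0.0308, and -0.00094 without both DJ-1 replicates 3 and 4. Slc25a23 was at 7.34, 7.42, 7.66 and 7.80 in DJ-1 hearts, against 8.00, 7.59, 7.44 and 7.84 in placebo hearts. Its groups overlapped, with a difference of -0.16 (SE 0.14, adjusted p = 0.864). It was -0.069 without placebo replicate 1 and -0.34 without both DJ-1 replicates 3 and 4. Slc25a41, the form without the calcium-binding part, differed by -0.036 and Slc25a31 by 0.047.

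The carriers of citrate, malate, oxoglutarate, aspartate and glutamate had the most one-sided means of the larger groups. Of 10 members 8 had a lower mean after DJ-1, 0 passed the adjusted threshold and 2, Slc25a1 and Slc25a22, had an unadjusted p under 0.05 with a lower mean, as did 2.36% of all genes. Their median difference was -0.082, against 0.0082 for all genes. The count of lower means was between 7 and 10 in every setting tried, and 7 of 9 without Slc25a21, at the background level. Of all 19938 genes 9468 had a lower mean. Above the background guide it was 7470 of 13693 genes, with a median difference of -0.014. The group was described after earlier results of these data were known, and whether it differs from other genes was not tested.

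The malate-aspartate shuttle, which brings reducing equivalents of glycolysis into the matrix, uses 3 of these carriers. Slc25a12, its aspartate/glutamate carrier in heart and brain, was at 11.18, 11.26, 11.42 and 11.41 in DJ-1 hearts, against 11.40, 11.08, 11.17 and 11.43 in placebo hearts. The groups overlapped fully, with a difference of 0.053 (SE 0.11). Slc25a13, the form of liver and other tissues, was at 9.46, 9.52, 9.55 and 9.53 in DJ-1 hearts, against 9.60, 9.41, 9.52 and 9.82 in placebo hearts. Its difference was -0.074 (SE 0.10), and the DJ-1 hearts lay within the placebo range. Slc25a11, the oxoglutarate/malate carrier, was at 12.44, 12.52, 12.54 and 12.54 in DJ-1 hearts, against 12.70, 12.36, 12.42 and 12.53 in placebo hearts. Its difference was 0.0061 (SE 0.098, 95% confidence interval -0.21 to 0.22), so the DJ-1 values again fell inside the placebo spread. The adjusted p of these 3 carriers ran from 0.914 to 0.994. Among the other members of the group, the dicarboxylate carrier Slc25a10 differed by -0.081, the glutamate carrier Slc25a18 by -0.040, the oxodicarboxylate carrier Slc25a21 by -0.10, and Slc25a34 and Slc25a35 by -0.084 and -0.12.

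Carriers of carnitine and amino acids form the next group. Of 9 members 5 had a higher and 4 a lower mean after DJ-1, or 3 and 4 without Slc25a2 and Slc25a48, at the background level. Their differences ran from -0.099 to 0.089, and 0 had an unadjusted p under 0.05. Slc25a20 brings fatty acids into the matrix as acylcarnitines in exchange for carnitine. It was at 9.70, 9.68, 9.46 and 9.57 in DJ-1 hearts, against 9.71, 9.51, 9.63 and 9.51 in placebo hearts. The groups overlapped, with a difference of 0.013 (SE 0.095, 95% confidence interval -0.20 to 0.22). The ornithine carrier Slc25a15 was at 6.37, 6.18, 6.24 and 6.29 in DJ-1 hearts, against 6.40, 6.28, 6.41 and 6.35 in placebo hearts, a difference of -0.094 (SE 0.087, adjusted p = 0.868). The glycine carrier Slc25a38, needed for heme synthesis, differed by 0.055, the branched-chain amino acid carrier Slc25a44 by -0.012, and Slc25a29, which carries basic amino acids, by -0.099.

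Cofactor and nucleotide carriers supply the matrix enzymes. Of 8 measured members 5 had a higher and 3 a lower mean, and 0 had an unadjusted p under 0.05. Slc25a51, through which NAD enters, was at 7.79, 7.70, 7.70 and 7.90 in DJ-1 hearts, against 7.75, 7.60, 7.50 and 7.73 in placebo hearts. The groups overlapped and the difference was 0.13 (SE 0.097, adjusted p = 0.848). The S-adenosylmethionine carrier Slc25a26 was at 7.40, 7.32, 7.19 and 7.39 in DJ-1 hearts, against 7.68, 7.31, 7.36 and 7.48 in placebo hearts, a difference of -0.13 (SE 0.11) that was -0.057 without placebo replicate 1. The coenzyme A carrier Slc25a42 was at 8.43, 8.37, 8.38 and 8.64 in DJ-1 hearts, against 8.87, 8.27, 8.51 and 8.75 in placebo hearts. Its difference was -0.14 (SE 0.13), and -0.054 without placebo replicate 1, the highest of its arrays.

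Slc25a33, a carrier of pyrimidine nucleotides, is added because its spread was among the widest of the family, a choice made after its values were seen. It was at 7.43, 6.56, 6.39 and 6.79 in DJ-1 hearts, against 6.78, 6.83, 6.30 and 6.40 in placebo hearts. A single heart, DJ-1 replicate 1, was far above the others, and the difference was 0.22 (SE 0.21, adjusted p = 0.874). Its relative Slc25a36 differed by 0.029, the folate and flavin carrier Slc25a32 by 0.055, the peroxisomal Slc25a17 by 0.060 and Slc25a16 by -0.031.

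The iron carriers held the largest difference of the family. Slc25a37, or mitoferrin 1, imports iron for heme and iron-sulfur clusters and is best known from red cell precursors. It was at 7.99, 7.75, 8.08 and 7.59 in DJ-1 hearts, against 8.21, 7.50, 7.08 and 7.21 in placebo hearts. All 4 DJ-1 hearts were above 3 of the placebo hearts, and placebo replicate 1 was above all of them. The means were 7.85 ± 0.22 in DJ-1 hearts and 7.50 ± 0.50 in placebo hearts (SD, n = 4 each). The difference was 0.35 (SE 0.22, 95% confidence interval -0.12 to 0.82, unadjusted p = 0.129, adjusted p = 0.824). Without placebo replicate 1 the groups did not overlap and it was 0.59 (unadjusted p = 0.00241 in limma), and without placebo replicate 3 it was 0.21. Its pooled SD of 0.39 was above that of 97.3% of the genes.

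Blood cell markers are given beside Slc25a37. Of 11 erythroid markers 5 were measured under a single symbol, all 5 with a higher mean after DJ-1 and 4 of them above the background guide. Their summed signal was 1294, 954, 1077 and 756 in DJ-1 replicates 1 to 4, against 1103, 905, 546 and 452 in placebo replicates 1 to 4. As for Slc25a37, placebo replicates 3 and 4 were the lowest and placebo replicate 1 the highest of the placebo hearts. That order is the order of Alas2, which made up 72.1% to 87.8% of the sum. None of the other 4 erythroid markers was highest in placebo replicate 1: Slc4a1 and Epb42 were highest in placebo replicate 2, Ermap in placebo replicate 3 and Hemgn in placebo replicate 4, and Epb42 was lowest in placebo replicate 1. The hemoglobin genes were among the 6 without a single-symbol probe set. Slc4a1, the anion exchanger of the red cell membrane, had no overlap between groups (difference 0.59, SE 0.16, unadjusted p = 0.00282, adjusted p = 0.824 in limma). Alas2, the first enzyme of heme synthesis in red cell precursors, was at 10.12, 9.66, 9.76 and 9.19 in DJ-1 hearts, against 9.92, 9.57, 8.66 and 8.35 in placebo hearts. All 13 neutrophil markers also had a higher mean after DJ-1, 12 of them above the background guide. Among the 13, Lcn2 and Ltf had an unadjusted p under 0.05 in limma, as did 3.63% of all genes on the higher side. Ltf was the marker below the guide. A higher mean was found for 52.5% of all genes and for 6223 of the 13693 genes above the guide. Of those 13693 genes, 287 had an unadjusted p under 0.05 in limma on the higher side. The summed signal of the 13 markers was 1185 to 3576 in DJ-1 hearts, against 459 to 2890 in placebo hearts, with placebo replicate 2 the highest of these. The part of these cells in the Slc25a37 values was not tested. In tissue samples of this kind, more cells of a type and more transcript per cell cannot be told apart.

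**Figure D4:**
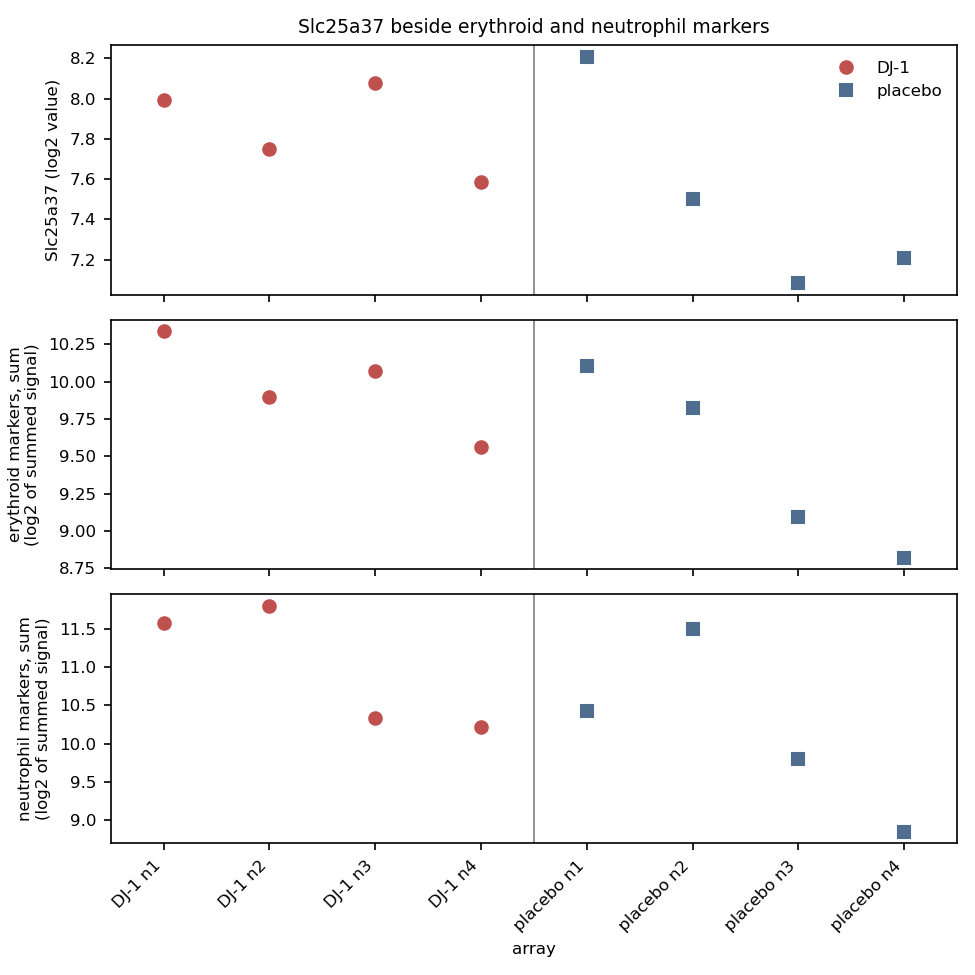
Slc25a37 (top, log2 value), the summed signal of 5 erythroid markers (middle, log2 of the sum) and of 13 neutrophil markers (bottom, log2 of the sum) in each of the 4 DJ-1 (red circles) and 4 placebo (blue squares) arrays. Placebo replicates 3 and 4 are the lowest arrays in all 3 panels, and placebo replicate 1 is the highest placebo array for Slc25a37 and for the erythroid sum, of which Alas2 makes up 72.1% or more.

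The other members of this group did not share that spread. Slc25a28, or mitoferrin 2, the iron carrier of cells other than red cell precursors, is given as the pair of Slc25a37, a choice made after its values were seen. It was at 7.03, 7.16, 6.98 and 7.05 in DJ-1 hearts, against 7.06, 7.02, 7.06 and 7.03 in placebo hearts. Its difference was 0.015 (95% confidence interval -0.17 to 0.20), and its pooled SD of 0.058 stood at the 1.50 percentile of all genes. The glutathione carriers Slc25a39 and Slc25a40 differed by 0.090 (SE 0.10) and -0.048 (SE 0.11). A dimmer probe set with the same accessions as that of Slc25a40 gave -0.22 (SE 0.18).

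Fibroblast and endothelial markers had mostly lower means after DJ-1, beside the 3 carriers of smallest p. All 9 fibroblast markers had a lower mean, and 2 had an unadjusted p under 0.05 in limma, as did 2.36% of all genes on that side. The summed signal of the 9 markers was 7393 to 8437 in DJ-1 hearts and 8113 to 9279 in placebo hearts. Dcn, the brightest of them, weighs most in this sum and differed by -0.067. Of 8 endothelial markers 6 had a lower mean, with a summed signal of 6571 to 7556 in DJ-1 hearts and 7059 to 8162 in placebo hearts. Only Kdr among them had an unadjusted p under 0.05 in limma (difference -0.48). Of the 10 cardiomyocyte markers 8 had a lower mean. Every fibroblast and endothelial marker was above the background guide, where 7470 of 13693 genes had a lower mean. The part of these cells in the carrier values was not tested.

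Members that resemble uncoupling proteins, which let protons or anions leak across the inner membrane, had differences of -0.077 for Slc25a14, -0.065 for Slc25a27 and 0.027 for Slc25a30. The remaining members were Slc25a46, an outer-membrane protein that shapes mitochondria, with -0.044, Slc25a43 with 0.0064, and Slc25a53 and Slc25a54 with 0.16 and 0.14, both at the background level. None of these 7 had an unadjusted p under 0.05.

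A single heart stood out across the family. Placebo replicate 1 held the highest value of 17 of the 46 members (37.0%, against 13.7% of all genes) and had a median deviation of 0.10 from the members' own means. It also held the lowest value of 6 of the 46 members, and of 12.4% of all genes. The other 7 arrays had median deviations of -0.050 to 0.044. DJ-1 replicate 2 and placebo replicate 3 each held the highest value of 1 member. The median pooled SD of the members was 0.14, against 0.17 for all genes. Leaving out placebo replicate 1 changed the median difference of the family to 0.021.

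**Figure D5:**
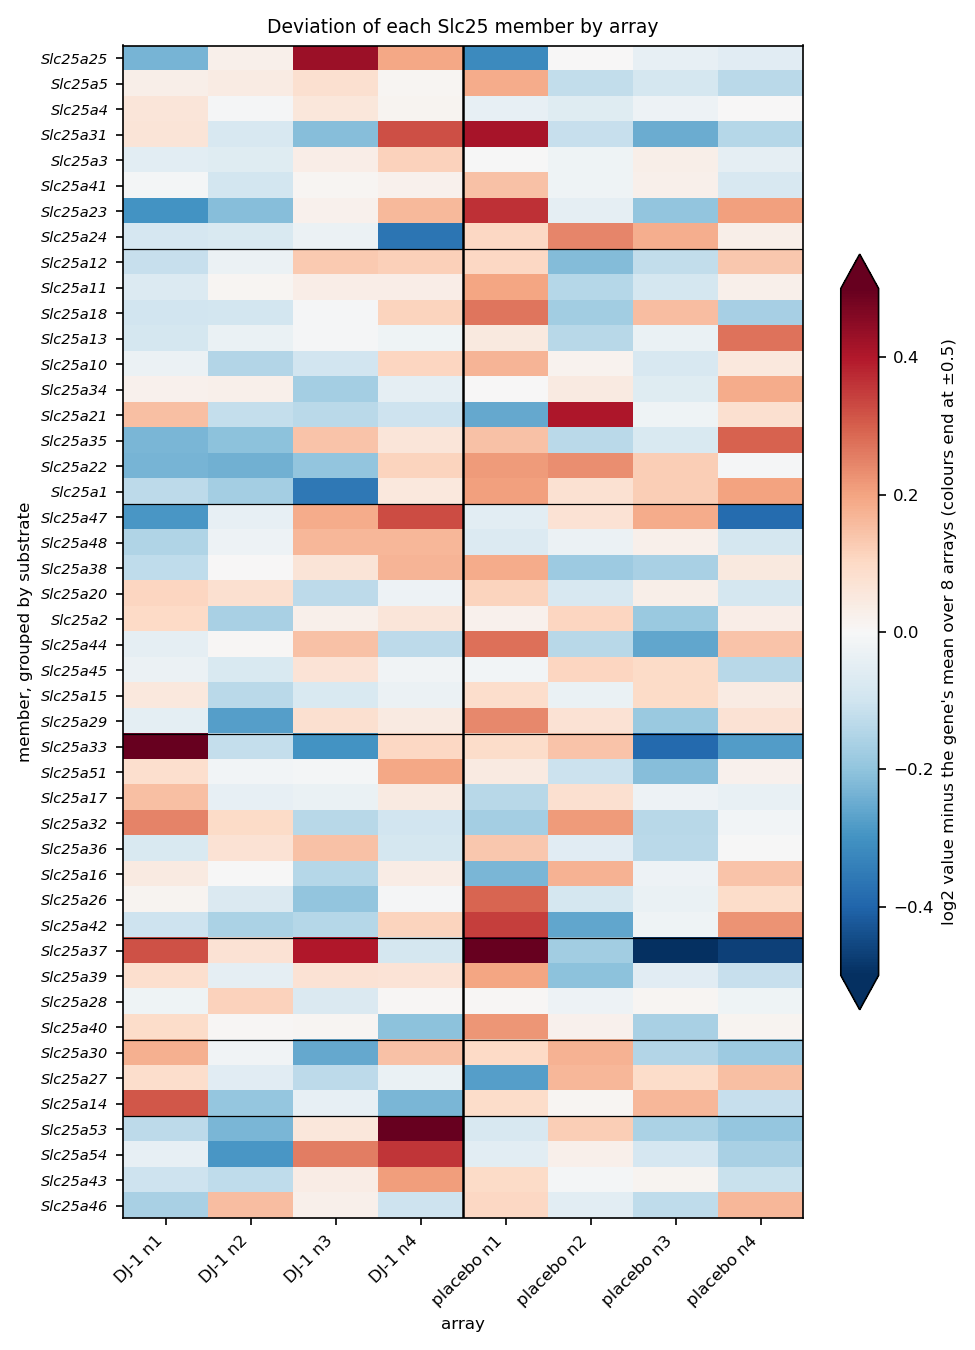
Deviation of each of the 46 members (rows, grouped by substrate) from its own mean over the 8 arrays, for DJ-1 replicates 1 to 4 (left of the line) and placebo replicates 1 to 4 (right). Red is above and blue below the mean, with colours ending at ±0.5; placebo replicate 1 shows the most red, with the highest value of 17 members, and Slc25a37 the widest range in colour.

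Some members lie side by side in the genome, and the differences between neighbours were not tested. The 46 members are spread over 19 chromosomes, and 4 pairs are less than 100 kb apart in the RefSeq table of GRCm38.p6. On chromosome 3, Slc25a54 (0.14, at the background level) and Slc25a24 (-0.28) are separated by 6.57 kb. On chromosome 17, Slc25a41 (-0.036) and Slc25a23 (-0.16) are separated by 2.06 kb. The pairs Slc25a29 and Slc25a47 on chromosome 12 (-0.099 and 0.089) and Slc25a43 and Slc25a5 on the X chromosome (0.0064 and 0.081) are separated by 14.0 and 18.3 kb.

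Genes that work with the carriers gave 0 calls at an adjusted p under 0.05 in the limma fit (0% of all genes). They also gave 0 at an unadjusted p under 0.05 (5.99% of all genes). Carriers of the same family under other symbols were measured for 4 of 5 genes. Ucp1, the uncoupling protein of brown fat, had no overlap between groups, at 4.07, 4.07, 4.19 and 4.35 in DJ-1 hearts against 3.99, 4.01, 4.04 and 3.83 in placebo hearts, all below the background guide of 4.74 (difference 0.20, SE 0.099). Mtch2 and Mtch1, outer-membrane relatives, differed by 0.057 (SE 0.10) and -0.034 (SE 0.11). Ucp3, the muscle form, is given because of its spread: it was at 7.85, 6.98, 5.87 and 6.14 in DJ-1 hearts, against 6.75, 6.96, 6.44 and 6.53 in placebo hearts. Its highest heart was DJ-1 replicate 1, as for Slc25a33, and its difference was 0.040 (SE 0.35).

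The machinery that imports carriers into the inner membrane had a lower mean after DJ-1 for 10 of 15 measured genes, with a median of -0.015. Its members of smallest p were the receptor Tomm70a with -0.16 (SE 0.11), Timm29 of the carrier translocase with -0.14 (SE 0.10) and Tomm5 with -0.22 (SE 0.17). Among other transporters of the mitochondrial membranes 14 of 19 had a lower mean, with a median of -0.070. They were led by the serine carrier Sfxn1 with -0.22 (SE 0.11), the sodium/calcium exchanger Slc8b1 with -0.17 (SE 0.11) and Abcb8 with -0.15 (SE 0.13). The measured genes of both lists were above the background guide, where 7470 of 13693 genes had a lower mean and the median was -0.014. Of 10 measured genes of the malate-aspartate, glycerol phosphate and carnitine shuttles, enzymes apart from the carnitine transporter Slc22a5, 7 had a higher mean. All 10 were above the background guide, where 6223 of 13693 genes had a higher mean. The 3 of smallest p in this list were Gpd2 at -0.14 (SE 0.091), Got1 at 0.15 (SE 0.10) and Cpt1a at -0.088 (SE 0.13). The adjusted p of these 9 genes was 0.824 or more.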

How the data were processed

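Myocardial RNA of 4 DJ-1 and 4 placebo mice (100 ng a sample) was measured on Affymetrix arrays that read the whole transcript, per the labels' protocols. The authors' deposited values, 35556 probe sets an array, are log2 and were made with RMA, per the submitters' processing notes. Neither the RMA version nor the annotation build is given in the sources used here. RMA is usually run with quantile normalization across arrays, which removes whole-array differences, but array medians still differed slightly. No further normalization was applied.

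Genes were named from the platform annotation: 21789 probe sets had 1 symbol, 1621 several and 12146 none. Members were matched to the RefSeq table by Entrez identifier (46 of 46 found). DJ-1 was compared with placebo by a two-sided limma test (version 3.58.1, lmFit and eBayes, R version 4.3.3) with no covariate, and p-values were adjusted by Benjamini-Hochberg over the 19938 genes. The script was tested on simulated data with independent noise and planted changes larger than the difference of any member. That test does not cover differences of the members' size. The number of arrays limits precision: the median SE of the members was 0.11. The members and gene lists were chosen with earlier results of these data known. Members given with values in every array are the 10 of smallest p, those without overlap, and 9 fixed by role; partner genes are the 3 of smallest p per list. Slc25a28, Slc25a33 and Ucp3 were added outside this rule after their values were seen. Alternatives were 3 scalings, averaged probe sets, a filter on low values, an intensity trend, unmoderated variances, array weights, the replicate number as a block, and arrays left out. Brown and white fat markers were measured for 7 of 7 and 6 of 6 genes, with median differences of 0.10 and 0.065. Promoters came from RefSeq, 1 window per gene (the first listed).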

Additional observations from a re-analysis of the deposited data

Results flagged for a closer look

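In 6 of 92 groups of 4 arrays (46 members in each treatment group, 6.52%), 1 heart stood apart from the other 3 by more than Dixon's 95% limit for the gap over the range; chance alone flags about 1 in 20 groups. Among the 3 members of smallest p, DJ-1 replicate 4 was the highest DJ-1 heart for Slc25a22 (6.55, next 6.24) and the lowest for Slc25a24 (5.78, next 6.06). DJ-1 replicate 1 was the highest DJ-1 heart for Slc25a21 (3.48, next 3.23, below the background guide). DJ-1 replicate 2 was the lowest DJ-1 heart for Slc25a39 (9.66, next 9.77). Placebo replicate 1 was the lowest placebo heart for Slc25a27 (5.65, next 6.02) and the highest for Slc25a5 (12.06, next 11.79). The causes were not tested.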

How the results depend on the processing

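Under the 18 alternatives, 0 of the 46 members passed an adjusted p of 0.05 in every one, and the 29 named genes kept their direction in 497 of 521 comparisons. The number of members at an unadjusted p under 0.05 was 3 in the main comparison, 4 without moderation of variances, and 1 to 3 with each array left out (1 without placebo replicate 2). Members without overlap numbered 2 (3.22% of all genes), but 1 with cyclic loess (3.18%), 6 without both DJ-1 replicates 3 and 4 (13.1%), and 2 to 6 with each array left out (5.07% to 7.54%). Slc25a1 overlapped with cyclic loess and with quantile normalization, where Slc25a4 took its place in a count of 2 (3.15%). Over all genes the count past the adjusted threshold was 0, and 0 to 1 with each array left out (1 without DJ-1 replicate 3). Among all genes at an unadjusted p under 0.05 in limma, lower calls numbered 254 without placebo replicate 4 against 470. The filter on low values kept 13693 of the 19938 genes and gave 331 higher calls. In the main comparison there were 287 higher calls among those 13693 genes and 724 among all genes. The sign turned for 8 of the 29 named genes, among them Slc25a25 (0.21) and Cpt1a (-0.088). With arrays centred on their median, Slc25a3, Slc25a11 and Slc25a20 were at -0.024, -0.036 and -0.029. Slc25a3 was at -0.011 with quantile normalization and -0.00027 with array weights, and Slc25a11 at -0.015 with cyclic loess. Without both DJ-1 replicates 3 and 4, Slc25a25, Slc25a3, Slc25a11, Slc25a12 and Cpt1a were at -0.00094, -0.047, -0.024, -0.045 and 0.062. With each array left out in turn Slc25a3 ran from -0.017 to 0.042, Slc25a11 from -0.040 to 0.072, Slc25a12 from -0.011 to 0.11, Slc25a13 from -0.13 to 0.0036, Slc25a20 from -0.019 to 0.060 and Mtch1 from -0.10 to 0.021. The causes were not tested.

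Correlations over genes between hearts with the same replicate number were 0.0045, 0.17, 0.18 and 0.0081 for numbers 1 to 4. The highest correlations of these DJ-1 hearts with a placebo heart of another number were 0.29, 0.087, 0.18 and 0.18. Only for replicate 2 was the same number clearly higher, and replicate 3 was level. Setting each value against the highest of several others cannot exclude pairs. No label says that a number marks a shared litter or day, so the numbers were not taken as pairs. With the replicate number as a block, 0 genes and 0 members passed the adjusted threshold, 3 members had an unadjusted p under 0.05, and the median difference of the family was 0.0062. With 4 hearts a group, the median 95% confidence interval of a member extended 0.23 to each side, and 7 members were at the background level. An estimate smaller than its own interval's half-width misses even an unadjusted p of 0.05 in limma. The adjusted threshold asks for more: Slc25a1, at -0.30, had an adjusted p of 0.824.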
